A study of Mus musculus with 4 samples.

Results

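A set of 7 genes of the surface mucous, or pit, cells of the stomach was read on 4 arrays of laser-captured gastric cells: Muc5ac, Muc1, Tff1, Gkn1, Gkn2, Psca and Foxq1. They were taken by symbol, as probe sets that the platform annotation ties to a single gene. All 7 were found, with 1 probe set each, among 19938 genes in all. The arrays, of the Affymetrix Mouse Gene ST type, held RNA of zymogenic cells from MIST1 knockout mice, zymogenic cells from wild-type mice, mucous neck cells from MIST1 knockout mice and mucous neck cells from wild-type mice. All mice were adults of C57BL/6 background. Each group was 1 array, made from RNA pooled over several dissections and mice, so the differences below could not be set against replicates, and none carries a p-value. MIST1, encoded by Bhlha15, is a transcription factor found in secretory cells. The labels give the genotype no further than as a knockout, and do not say in which cells the gene was lost. Zymogenic (chief) cells store digestive enzymes at the gland base. They were dissected as cells lying deeper than the signal of the lectin GS-II, which binds neck cell mucus, and without the outline of parietal cells. How neck cells were picked is not stated in the labels or design text.

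Pit cells line the stomach surface and the pits into which the glands open, above the neck and far from the base. They secrete a gel of the mucin MUC5AC together with trefoil and gastrokine peptides, and this gel shields the mucosa from acid. Neck cells make a different mucus, built on the mucin MUC6 and the trefoil peptide TFF2. Pit cells were not a labelled target of the dissection, so the levels describe pit cell genes in arrays of neck and zymogenic cells. An array of captured tissue is a bulk measurement, in which fewer cells of a type and less RNA per cell cannot be told apart.

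The targeted gene and most defining products of both cell types ran with the labels in direction, though not all by 2-fold. Bhlha15 read 22.0 in MIST1-null and 149.8 in wild-type zymogenic cells, and 20.2 in MIST1-null and 59.7 in wild-type neck cells. Whether its probes lie within the deletion was not known here. Chia1, a chitinase of zymogenic cells, read 8209 to 9022 in the zymogenic arrays and 1494 to 1806 in the neck arrays. Pgc, another zymogenic marker, read 9982 to 10638 in the zymogenic and 8672 to 8698 in the neck arrays. Its log2 differences were only 0.29 in MIST1-null and 0.20 in wild-type mice. Of 5 zymogenic markers, the pepsinogen gene Pga5 went against the label, at 20.4 to 31.0 in the zymogenic and 1350 to 1884 in the neck arrays. Muc6 read 20.7 to 26.7 in the zymogenic arrays and 2511 to 2980 in the neck arrays. Of 6 neck markers, the water channel gene Aqp5 went against the label, at 92.0 to 95.5 in the zymogenic and 62.5 to 65.7 in the neck arrays. The zymogenic values of Muc6 lie under 43.7, the median of all 1-gene probe sets, which served as the detection level. It was chosen for convenience, since no background was measured. Among zymogenic markers reaching it in either cell type, 2 of 4 were at least 2-fold higher in MIST1-null zymogenic cells (4.90% of detectable genes). In wild-type mice 3 of 5 were (6.27%).

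All 7 pit cell genes read at or above the detection level in every array, as did 35.6% of all genes. Relative to that level the genes lay far apart, from Muc5ac just above it to Psca among the brightest probe sets, whose differences may be flattened. Levels of different genes come from different probes and are not compared with each other below.

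**Figure D1:**
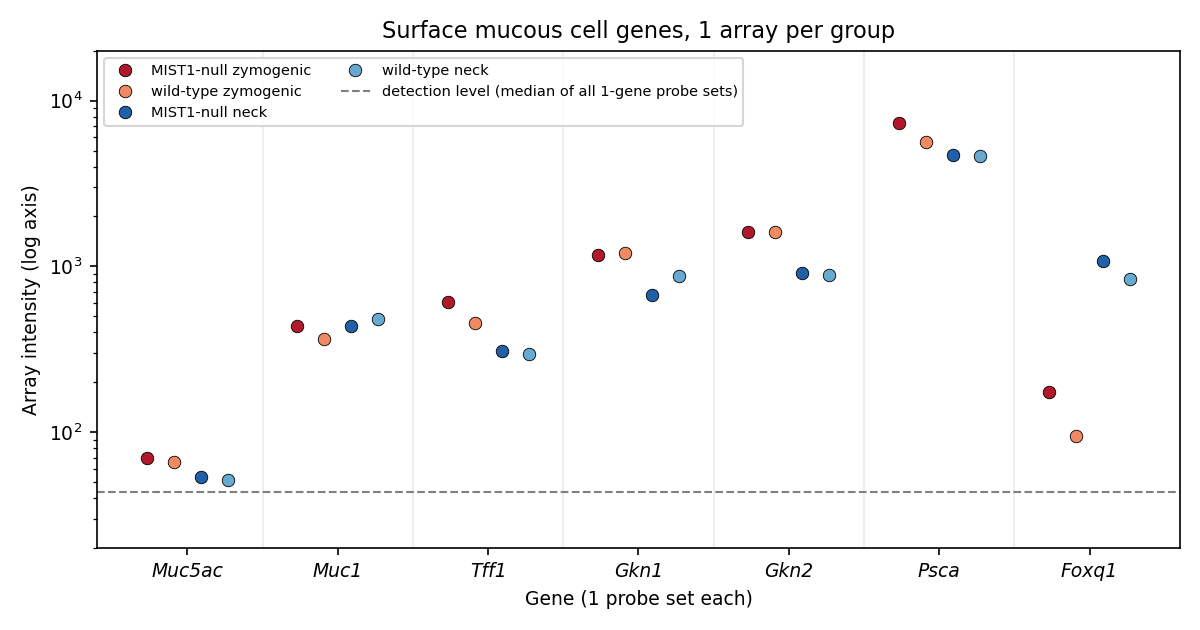
Array intensity on a log axis for the 7 pit cell genes, with 1 point for each array and the detection level of 43.7 as a dashed line. Muc5ac, Tff1, Gkn1, Gkn2 and Psca lie higher in both zymogenic arrays than in both neck arrays, while Foxq1 lies far lower in the zymogenic arrays.

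RefSeq promoter windows of assembly GRCm38.p6, from 250 bases before to 50 after the gene start, matched 3 of the 7 genes by symbol: Gkn1, Gkn2 and Muc1. Those of Gkn1 and Gkn2 are shown because these neighbouring genes had like patterns over the arrays, and that of Gkn3 because this adjacent gene had the opposite pattern. Capitals mark matches to the letters listed after the sequences, each written 5′ to 3′ on the strand of its gene.
Gkn1, chr6:87350866-87351165, minus strand: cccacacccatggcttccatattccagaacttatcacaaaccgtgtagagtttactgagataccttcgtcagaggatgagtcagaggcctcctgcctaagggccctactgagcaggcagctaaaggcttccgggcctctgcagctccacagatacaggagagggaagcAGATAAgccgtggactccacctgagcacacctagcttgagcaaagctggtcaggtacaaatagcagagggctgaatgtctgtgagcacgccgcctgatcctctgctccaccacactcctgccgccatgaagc
Gkn2, chr6:87373115-87373414, plus strand: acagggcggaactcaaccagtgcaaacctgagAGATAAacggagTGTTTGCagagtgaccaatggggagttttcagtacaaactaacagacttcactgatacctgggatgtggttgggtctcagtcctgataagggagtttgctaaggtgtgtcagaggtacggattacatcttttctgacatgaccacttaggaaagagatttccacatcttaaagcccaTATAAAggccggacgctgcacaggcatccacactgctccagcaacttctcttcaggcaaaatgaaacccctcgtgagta
Gkn3, chr6:87388886-87389185, minus strand: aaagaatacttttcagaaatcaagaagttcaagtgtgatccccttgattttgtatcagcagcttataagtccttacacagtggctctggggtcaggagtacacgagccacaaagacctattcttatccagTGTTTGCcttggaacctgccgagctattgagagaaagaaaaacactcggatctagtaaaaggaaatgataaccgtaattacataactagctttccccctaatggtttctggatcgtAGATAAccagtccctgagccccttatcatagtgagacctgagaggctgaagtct

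Each set of letters was searched on both strands. TATAAA is a core promoter element. TGTTTNC is bound by forkhead factors, the family to which FOXQ1 belongs. AGATAA is bound by the factors named after it, such as GATA4. The E-boxes CAGCTG and, searched separately from it, CATATG are of the kind bound by MIST1. No matches overlapped each other. AGATAA stood in the windows of Gkn1, Gkn2 and Gkn3, and in 11.2% of all 32851 windows. TGTTTNC stood in those of Gkn2, Gkn3 and Muc1, against 20.5% of all windows. TATAAA stood in those of Gkn2 and Muc1, against 13.6%. In Gkn2 it began 29 bases before the start. Neither E-box stood in the windows of Gkn1, Gkn2 or Muc1, against 16.3% for CAGCTG and 3.91% for CATATG. A match is a run of letters and not a measured site, and a missing match says only that these letters are not in the window.

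The first comparison was between zymogenic and neck cells. Of the 7 genes, 5 read higher in zymogenic than in neck cells in both genotypes, by less than 2-fold each: Muc5ac, Tff1, Gkn1, Gkn2 and Psca. Among genes detectable in both comparisons, 31.5% were higher in both. Muc1 showed no common direction. Foxq1 ran the other way and was the single gene at 2-fold or more, 6.21-fold lower in MIST1-null and 8.86-fold lower in wild-type zymogenic cells. The comparisons in MIST1-null and wild-type mice share no array.

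**Figure D2:**
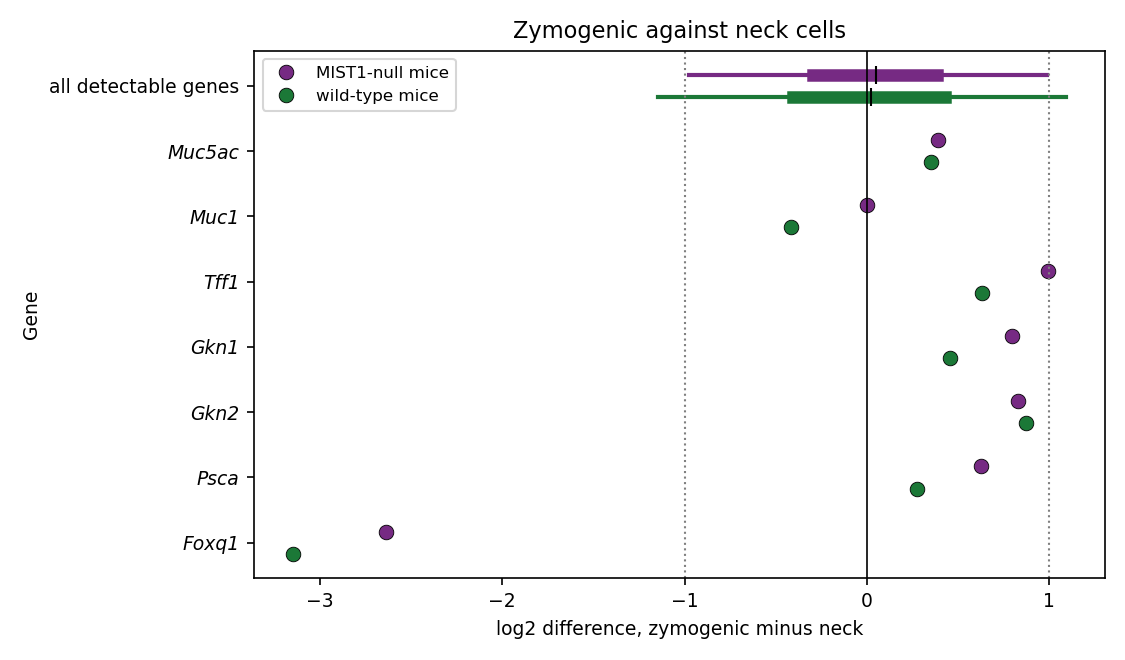
Log2 difference, zymogenic minus neck, for each gene in MIST1-null mice and in wild-type mice, with dotted lines at 2-fold. The bars at the top span the 5th to 95th (thin) and 25th to 75th (thick) percentiles of all detectable genes, with a tick at the median. Foxq1 lies at -2.63 and -3.15, outside the bars, and the other genes lie between -0.42 and 0.99.

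Muc5ac encodes the gel-forming mucin of pit cells. It read 69.8 in MIST1-null zymogenic and 53.2 in MIST1-null neck cells, and 65.5 in wild-type zymogenic and 51.4 in wild-type neck cells. Both zymogenic arrays were above both neck arrays, with log2 differences of 0.39 and 0.35, and all 4 values lay close to the detection level.

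Muc1 encodes a mucin held in the cell membrane, made by many epithelia besides pit cells. It read 436.0 in MIST1-null zymogenic and 435.4 in MIST1-null neck cells, and 362.6 in wild-type zymogenic and 483.7 in wild-type neck cells. The MIST1-null arrays were level (0.00), and wild-type zymogenic cells were lower than wild-type neck cells by a log2 difference of -0.42.

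Tff1 encodes a trefoil peptide secreted with MUC5AC. It read 610.4 in MIST1-null zymogenic and 306.6 in MIST1-null neck cells, and 454.5 in wild-type zymogenic and 293.8 in wild-type neck cells. The groups did not overlap. In MIST1-null mice the log2 difference of 0.99 lay just inside the 2-fold threshold, and it was 1.08 after quantile normalization and 1.05 after cyclic loess. In wild-type mice it was 0.63.

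Gkn1 encodes gastrokine 1, a secreted peptide with a BRICHOS domain. It read 1168 in MIST1-null zymogenic and 673.2 in MIST1-null neck cells, and 1208 in wild-type zymogenic and 879.7 in wild-type neck cells. The log2 differences were 0.79 and 0.46. The values of both zymogenic arrays were close to each other, and those of the neck arrays were further apart.

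Gkn2 encodes gastrokine 2, which binds the TFF1 peptide in a heterodimer. It read 1616 in MIST1-null zymogenic and 910.9 in MIST1-null neck cells, and 1619 in wild-type zymogenic and 883.4 in wild-type neck cells. The log2 differences were 0.83 in MIST1-null and 0.87 in wild-type mice, or 1.77-fold and 1.83-fold, and the groups did not overlap.

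Psca encodes a small cell surface protein with a lipid anchor. It read 7299 in MIST1-null zymogenic and 4726 in MIST1-null neck cells, and 5629 in wild-type zymogenic and 4653 in wild-type neck cells. The log2 differences were 0.63 and 0.27. Both zymogenic arrays were above both neck arrays.

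Foxq1 encodes a forkhead transcription factor, and mice without it lack MUC5AC in their pit cells. It read 173.3 in MIST1-null zymogenic and 1076 in MIST1-null neck cells, and 94.8 in wild-type zymogenic and 840.0 in neck cells of wild-type mice. The log2 differences were -2.63 and -3.15, and all 4 values lay above the detection level. In MIST1-null mice 41 of 11322 detectable genes had a lower difference, and in wild-type mice 27 of 11778. Of 12935 genes detectable in any array, 20 were as low as Foxq1 in both genotypes, counting itself, or 0.155%.

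A gene was taken as detectable in a comparison if either of its values was at the detection level or above. Shares of all genes given for a comparison are of the genes detectable in it. At 2-fold or more either way, 1 of 7 pit cell genes was called in MIST1-null mice, against 9.70% of all detectable genes, and 1 of 7 in wild-type mice, against 13.1%. The count is thus near the share among all genes in both genotypes. Both zymogenic arrays lay above both neck arrays for 5 of 7, against 23.5% of the 12935 genes detectable in any array. Both neck arrays lay above both zymogenic arrays for 1 of 7, against 19.4%. The median of the 7 log2 differences was 0.63 in MIST1-null mice, beside 0.05 over all detectable genes, and 0.35 in wild-type mice, beside 0.02. Of genes detectable in any array, 52.3% had a larger zymogenic minus neck difference, in the signed sense, in MIST1-null than in wild-type mice. Among the 7 this held for 6, all but Gkn2. For Muc5ac this rests on 0.043, which was -0.0036 after cyclic loess. That difference between genotypes has no test.

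Many markers of other cells moved with cell type as well, though not all in 1 direction. All 6 endocrine markers (Chga, Chgb, Ghrl, Sst, Hdc and Gast) were detectable. Their summed intensity was 12793 in MIST1-null zymogenic and 3703 in MIST1-null neck cells, and 8743 in wild-type zymogenic and 5762 in wild-type neck cells. Ghrl made up the largest part of each sum and was level in wild-type mice, at 4428 in zymogenic and 4371 in neck cells. Among knockout mice 5 of 6 of these markers were higher in zymogenic cells by 2-fold or more (4.90% of all genes), and in wild-type mice 4 of 6 (6.27%). For 6 stromal markers (Acta2, Cnn1, Myh11, Col1a1, Col1a2 and Col3a1) the sums were 859 in zymogenic and 236 in neck cells of MIST1-null mice, and 856 in zymogenic and 345 in neck cells of wild-type mice, with 4 of 6 past 2-fold, higher in zymogenic cells, in each genotype. The 4 immune markers (Ptprc, Cd53, Lyz2 and Cd74) summed to 260.9 in MIST1-null zymogenic and 62.3 in MIST1-null neck cells, and to 292.1 in wild-type zymogenic and 211.9 in wild-type neck cells. Among them Cd53 ran the other way in wild-type mice, at 56.7 in zymogenic and 117.7 in neck cells. The 8 parietal markers (Atp4a, Atp4b, Kcne2, Esrrg, Aqp4, Hrh2, Kcnq1 and Clic6) leaned towards neck cells. In wild-type mice 7 of 8 were lower in zymogenic cells, with 4 past 2-fold (6.78% of all genes) and a median of -1.02. In MIST1-null mice 5 of 8 were lower, 1 was past 2-fold higher, and the median was -0.11. Of 4 squamous markers (Krt5, Krt14, Krt13 and Lgals7), all 3 detectable ones were higher in MIST1-null zymogenic cells, and 1 of 2 in wild-type ones. No marker of these lists was at the floor of 1, but many neck values lay under the detection level. In MIST1-null neck cells all 4 immune markers did so (6.3 to 30.6), as did the stromal markers Acta2, Cnn1, Myh11 and Col3a1 (10.6 to 41.4). Hdc was under it in both neck arrays. The sizes of these differences are therefore not firm. The part of these cells in the pit gene levels was not tested.

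The second comparison was between genotypes. None of the 7 genes reached 2-fold between MIST1-null and wild-type mice, in zymogenic cells or in neck cells. Among all detectable genes 10.4% did so in zymogenic cells and 4.29% in neck cells. The furthest was Foxq1, 1.83-fold higher in MIST1-null zymogenic cells, at a log2 difference of 0.87, and 1.28-fold higher in MIST1-null neck cells, at 0.36. In zymogenic cells 896 of 11826 detectable genes had a higher difference than Foxq1, and in neck cells 2092 of 10966.

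**Figure D3:**
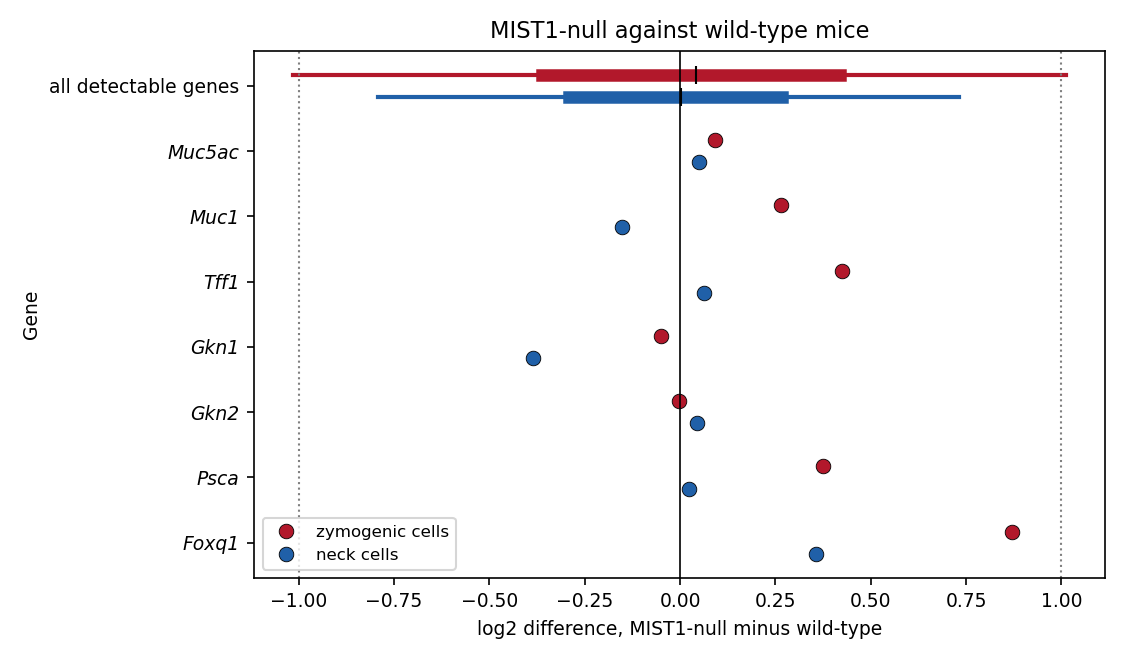
Log2 difference, MIST1-null minus wild-type, for each gene in zymogenic cells and in neck cells, with dotted lines at 2-fold. The bars at the top span the 5th to 95th (thin) and 25th to 75th (thick) percentiles of all detectable genes. All 7 genes lie within 2-fold, and Foxq1 in zymogenic cells is the furthest, at 0.87.

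In zymogenic cells, Tff1 (610.4 against 454.5) and Psca (7299 against 5629) were higher in MIST1-null than in wild-type mice by log2 differences of 0.43 and 0.37. Muc1 followed at 0.27, with 436.0 against 362.6. Muc5ac (0.09), Gkn1 (-0.05) and Gkn2 (-0.0034) were close to level between genotypes. The median of the 7 was 0.27, beside 0.04 over all detectable genes, with 5 of 7 above 0, where 52.9% of all detectable genes were.

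In neck cells the genotypes lay closer together for Foxq1, Tff1, Psca, Muc1 and Muc5ac, but further apart for Gkn1 and, by a small size, for Gkn2. Gkn1 had the largest difference there, at -0.39, with 673.2 in MIST1-null and 879.7 in wild-type cells. Muc1 was at -0.15, and Tff1 (0.06), Muc5ac (0.05), Gkn2 (0.04) and Psca (0.02) were nearly level. The median of the 7 was 0.04, beside 0.00 over all genes (0.0029 unrounded), with 5 of 7 above 0, against 50.2%. Of these, Gkn2, Tff1 and Psca went to the other side of 0 under quantile normalization or cyclic loess, the furthest being Psca at -0.013. For none of the 7 genes did both MIST1-null arrays lie above both wild-type arrays, against 16.5% of genes detectable in any array.

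Foxq1 and Muc1 had their lowest value of the 4 in wild-type zymogenic cells, as for 29.7% of genes detectable in any array. Markers of parietal cells, the acid-secreting cells of the gland, did the same in part. Their 8 genes summed to 8425 in MIST1-null and 4713 in wild-type zymogenic cells, and to 9469 in MIST1-null and 8818 in wild-type neck cells. Atp4a made up the largest part of each sum. All 8 were detectable, and in zymogenic cells 7 of 8 were higher in MIST1-null than in wild-type mice, with a median log2 difference of 0.98. Their part in the Foxq1 and Muc1 values was not tested.

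Several pit cell genes sit in clusters beside genes of neck cell mucus, and the neighbours differed in pattern. On chromosome 6 the order in the gene table is Gkn1, Gkn2, Gkn3. Gkn3, a gastrokine of mucous neck cells in mice, read 40.7 in MIST1-null zymogenic and 966.7 in MIST1-null neck cells, and 59.8 in wild-type zymogenic and 594.2 in wild-type neck cells. Its log2 differences, zymogenic minus neck, were -4.57 and -3.31, where Gkn1 and Gkn2 lay between 0.46 and 0.87. The first size is not firm, because Gkn3 read under the detection level in MIST1-null zymogenic cells.

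On chromosome 17 Tff1 and Tff2 are next to each other in the same table. Tff2 read 276.7 in MIST1-null zymogenic and 3827 in MIST1-null neck cells, and 1320 in wild-type zymogenic and 3088 in wild-type neck cells. The ratio of Tff1 to Tff2 was therefore higher in zymogenic than in neck cells, by 4.78 on the log2 scale in MIST1-null and 1.86 in wild-type mice. Within zymogenic cells it was higher in MIST1-null than in wild-type mice by 2.68, since Tff2 differed by -2.25 and Tff1 by 0.43. Within neck cells the ratio differed by -0.25. Tff3, the trefoil peptide of intestinal goblet cells, stayed between 50.3 and 56.1 in all 4 arrays.

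On chromosome 7 the order is Muc6, Muc2, Muc5ac, Muc5b. Muc2, the gel mucin of intestinal goblet cells, and Muc5b, that of airways and glands, were under the detection level in every array, at 21.5 to 32.2. Muc6 was lower in zymogenic cells by -7.17 in MIST1-null and -6.56 in wild-type mice, and Muc5ac higher by 0.39 and 0.35. The Muc6 sizes are not firm, since both zymogenic values lay under the detection level. In the 3 clusters the pit cell members were thus higher, by less than 2-fold, and the neck cell member was lower, by more than 2-fold, in zymogenic cells of each genotype. The smallest difference of a neck cell member was that of Tff2 in wild-type mice, at -1.23. The values of Gkn1, Gkn2, Tff1 and Muc5ac in that statement are those given above and are no further evidence. Muc6, Tff2 and Gkn3 are themselves among the neck markers, so their direction is no separate finding about the clusters.

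The nearest protein-coding gene on each side of each pit cell gene gave 12 further genes in the gene table. Of these, 6 were detectable in zymogenic against neck cells of MIST1-null mice and 7 in wild-type mice. Among all detectable genes, 4.80% were at least 2-fold lower and 4.90% higher in MIST1-null mice, and 6.78% and 6.27% in wild-type mice. At 2-fold or more, Gkn3 and Tff2 were lower in both genotypes, but these are the neck cell genes given above and are no further evidence. Trim46, next to Muc1, was higher in MIST1-null zymogenic cells (1.04), and Tmprss3, next to Tff1, in wild-type zymogenic cells (1.26). Neither size is firm, since each gene barely passed the detection level, at 44.1 and 46.9, and did so in 1 array.

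**Figure D4:**
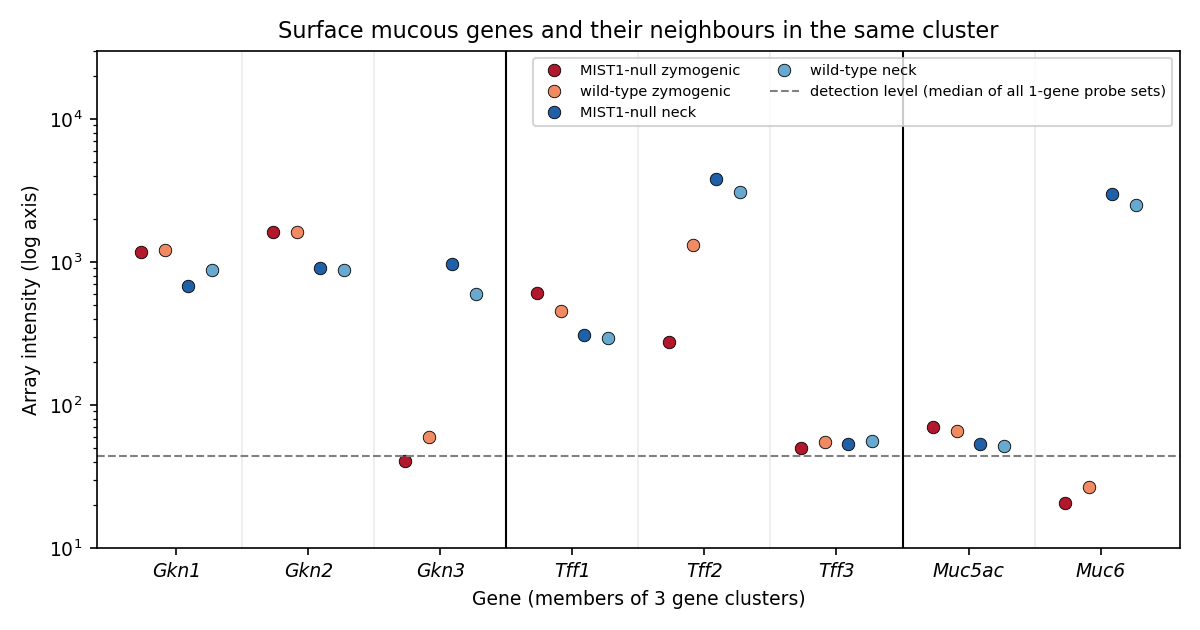
Array intensity on a log axis for genes of the gastrokine, trefoil and mucin clusters, 1 point for each array, with the detection level of 43.7 dashed. Gkn3, Tff2 and Muc6 lie more than 2-fold lower in the zymogenic array of each genotype than in its neck array, and Gkn1, Gkn2, Tff1 and Muc5ac lie higher there by less than 2-fold.

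Among other mucins, Muc4, a membrane mucin, was detectable in all arrays, at 83.2 in MIST1-null and 56.3 in wild-type zymogenic cells, and at 52.3 in MIST1-null and 58.9 in wild-type neck cells. Besides Muc4 and Muc6, none of the 9 mucins measured from a list of 10 reached the detection level in any array. The Gkn1 and Gkn2 peptides share the BRICHOS domain with the ITM2 proteins. Itm2b, the widely expressed member, read 1895 in MIST1-null zymogenic and 1255 in MIST1-null neck cells, and 1499 in wild-type zymogenic and 1201 in wild-type neck cells, with log2 differences of 0.59 and 0.32. Itm2c did not keep 1 direction, with differences of 0.56 in MIST1-null and -0.67 in wild-type mice. It read 317.5 in MIST1-null and 148.2 in wild-type zymogenic cells, a log2 difference of 1.10. Tnmd, a BRICHOS protein of tendon, reached the detection level in MIST1-null zymogenic cells alone, at 80.1 against 31.8 in wild-type zymogenic cells (1.33). The Tnmd size is not firm, since the wild-type value lay under that level. Of 7 other BRICHOS genes, 4 were detectable between genotypes in zymogenic cells. Of these, 2 (Itm2c and Tnmd) were at least 2-fold higher in MIST1-null mice, against 5.15% of all detectable genes. Among forkhead genes, Foxa1, Foxa2 and Foxa3, factors of gut epithelium, were detectable in all 4 arrays and stayed within 2-fold in every comparison. Foxa1 differed between zymogenic and neck cells by -0.45 in MIST1-null and -0.03 in wild-type mice. Foxf2, next to Foxq1 on chromosome 13 in the gene table, reached the detection level in 1 array, wild-type zymogenic cells, at 49.4.

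Most other genes of the gastric surface did not share the pattern of the 5 zymogenic-high genes. Of a list of 10, Ctse, Anxa10, Slc26a9, Vsig1, Vsig2, Mucl3 and Fut2 were detectable, and Capn8, Capn9 and Fer1l6 were under the detection level in every array. In zymogenic against neck cells, 1 of 7, Vsig1, was at least 2-fold lower in MIST1-null mice (4.80% of all genes) and 2 of 7 in wild-type mice (6.78%), and none was 2-fold higher. The medians were -0.28 and -0.62. Between genotypes in zymogenic cells, 3 of 7 were at least 2-fold higher in MIST1-null mice, against 5.15% of all genes, and none was in neck cells, against 1.89%.

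Those 3 were Ctse, Anxa10 and Slc26a9. Ctse, the aspartic protease cathepsin E, read 1757 in MIST1-null and 622.7 in wild-type zymogenic cells, and 2166 in MIST1-null and 1536 in wild-type neck cells. Slc26a9, a chloride transporter of gastric epithelium, read 487.1 in MIST1-null and 205.8 in wild-type zymogenic cells, and 851.4 in MIST1-null and 636.8 in wild-type neck cells. Anxa10, an annexin of gastric epithelium, read 664.0 in MIST1-null and 320.2 in wild-type zymogenic cells, and 511.2 in MIST1-null and 492.3 in wild-type neck cells. Each of them had its lowest value in wild-type zymogenic cells, as for Foxq1 and Muc1 and for most parietal markers. The log2 differences between genotypes in zymogenic cells were 1.497 for Ctse, 1.24 for Slc26a9 and 1.05 for Anxa10.

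**Figure D5:**
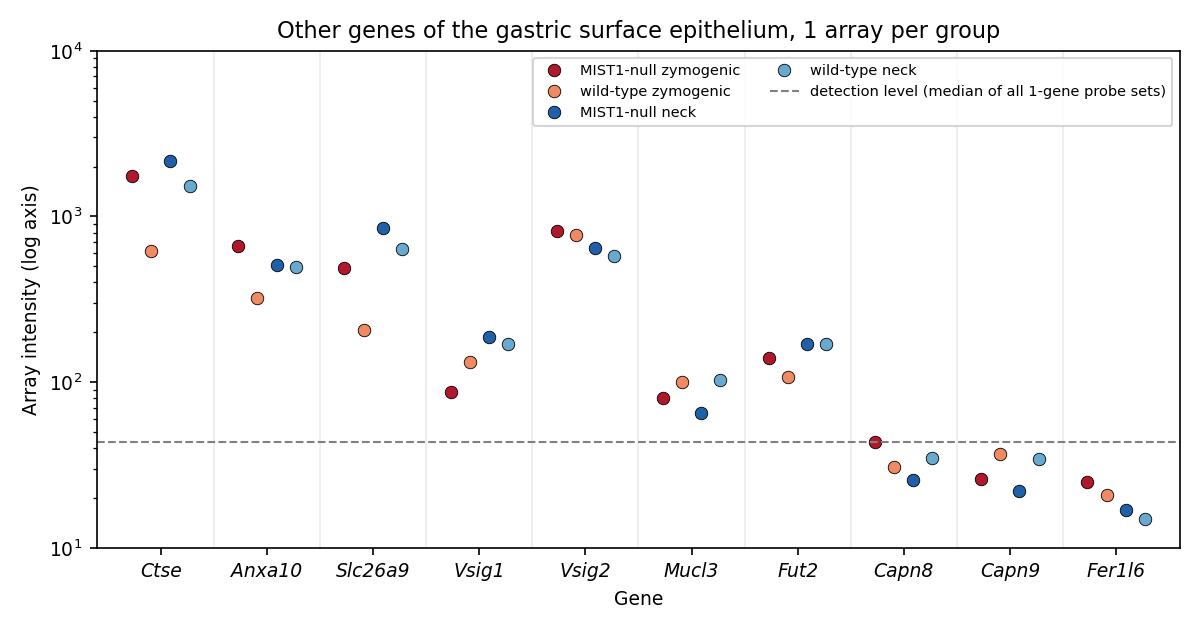
Array intensity on a log axis for 10 other genes of the gastric surface epithelium, 1 point for each array, with the detection level of 43.7 dashed. Ctse, Anxa10 and Slc26a9 have their lowest value in wild-type zymogenic cells, and Capn8, Capn9 and Fer1l6 stay under the dashed line.

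Vsig2, an immunoglobulin-domain protein, was the only detectable gene of the list that was higher in zymogenic cells of both genotypes, at 817.0 against 640.9 in MIST1-null and 767.4 against 579.7 in wild-type mice. Vsig1, another immunoglobulin-domain protein, read 87.1 in MIST1-null and 132.2 in wild-type zymogenic cells, and 188.1 in MIST1-null and 170.3 in wild-type neck cells. Mucl3, a mucin-like protein, read 79.7 in MIST1-null and 100.4 in wild-type zymogenic cells, and 65.5 in MIST1-null and 103.0 in wild-type neck cells. Both were lower in MIST1-null than in wild-type zymogenic cells, by log2 differences of -0.60 and -0.33. Fut2, which makes the fucosylated sugars of surface mucus, read 139.5 in MIST1-null and 108.1 in wild-type zymogenic cells, and 168.9 and 170.3 in MIST1-null and wild-type neck cells.

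Genes most like a pit cell gene over the 4 arrays were sought for Tff1 and Foxq1, whose 4 log2 values spanned at least 1, among 2115 genes. Likeness was the root mean square difference of log2 values after removing each gene's own mean. For Foxq1 the closest were the phospholipase Pla2g4a (0.16), the sulfotransferase Sult1b1 (0.21) and the glutathione transferase Mgst2 (0.24). Pla2g4a read 57.0 in MIST1-null and 39.3 in wild-type zymogenic cells, and 363.1 in MIST1-null and 354.1 in wild-type neck cells. For Tff1 they were Gosr2, a SNARE of the Golgi (0.052), G630025P09Rik (0.052) and the thrombin receptor F2r (0.060). The mean pattern of all 7 genes spanned 0.28, and its closest genes (Usp53, Khdc4 and AW549877) differed from it by 0.26 to 0.27, close to that whole span. With 4 arrays these are descriptions only.

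Among themselves, the 5 zymogenic-high genes had root mean square differences of 0.11 (Muc5ac and Psca) to 0.25 (Muc5ac and Tff1) over the 4 arrays. The 5 were grouped by their direction on these same arrays, so closeness among them and distance from Foxq1 follow in part from that choice. Distances between pairs of all genes were not taken, so these values are descriptions only. Tff1 and Gkn2, whose peptides pair, differed by 0.15, and the neighbours Gkn1 and Gkn2 by 0.19. Foxq1 differed from each of the 5 by 1.66 to 1.90 and from Muc1 by 1.37. Foxq1 and Muc5ac, which it is reported to regulate, thus had opposite directions between cell types, although Muc5ac lay too close to the detection level for its size to be firm.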

How the data were processed

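RNA from laser-captured gastric cells was hybridised to 4 Affymetrix Mouse Gene ST arrays, 1 per group. The authors checked and compared the arrays in dChip, per the series design text. The deposited values are linear intensity values per probe set, between 0.86 and 14251. How background was corrected, probes summarised and arrays scaled is not stated in the labels or design text. Array medians were 37.9 to 40.9. Signal over background is unknown, and precision is limited by the number of arrays. The platform annotation gave 1 gene symbol for 21789 of 35512 probe sets and several for 1621, and it did not list 12102. Entrez identifiers matched RefSeq genes of GRCm38.p6 for 21698, which changed 0 symbols. Where a gene had more than 1 probe set, the brightest on average stood for it. Values were floored at 1 and taken as log2. Differences are MIST1-null minus wild-type and zymogenic minus neck, called at 2-fold where the higher value reached the detection level, a log2 value of 5.45. With 1 array per group, no test was run. Genes named were the 7 members, lists of related genes and cell markers, neighbours in the gene table, and the 3 genes of closest pattern. Members and lists were chosen with earlier results of these data known. Alternatives were a pseudocount of 32, quantile and cyclic loess normalization (limma 3.58.1, R 4.3.3), median centring, the mean over probe sets, other filters and a 1.5-fold threshold.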

Additional observations from a re-analysis of the deposited data

Results flagged for a closer look

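The genotype difference of 2 genes had opposite signs in the cell types. The share of all genes with opposite signs was not counted. Among all detectable genes 52.9% were above 0 in zymogenic cells and 50.2% in neck cells, so the count is not read as unusual. Muc1 differed between MIST1-null and wild-type mice by 0.27 in zymogenic cells and by -0.15 in neck cells, so that the first difference exceeded the second by 0.42 on the log2 scale. Gkn2 differed by -0.0034 and 0.044, and these differ by -0.048, a size close to 0. Both Gkn2 differences had the same sign under median centring (0.045 and 0.095), quantile normalization (-0.0077 and -0.0069) and cyclic loess (-0.040 and -0.0095). With 1 array per group, neither difference between the cell types was tested.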

How the results depend on the processing

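Foxq1 was at least 2-fold lower in zymogenic cells of both genotypes under every normalization, pseudocount and filter run, at -2.70 to -2.43 in MIST1-null and -3.21 to -2.78 in wild-type mice. Each of the 7 genes has 1 probe set, so the mean over probe sets could not change its values. Those unchanged values are counted among the 175 single-gene values under an alternative. Of the 175, 166 kept their direction and their side of 2-fold, 7 crossed 0 from sizes under 0.1, and 2 passed 2-fold. These were values of Tff1 in MIST1-null zymogenic against neck cells under quantile normalization and cyclic loess, which made 2 genes called there. At 1.5-fold, 1 gene was called between genotypes in zymogenic cells (31.9% of all genes), 0 in neck cells (18.7%), 5 between cell types in MIST1-null mice (27.0%) and 3 in wild-type mice (34.7%). The neck genotype median of 0.04 was -0.0022 under quantile normalization and -0.0095 under cyclic loess. With the pseudocount of 32, the share of all genes at 2-fold was 2.93% and 0.748% between genotypes (zymogenic, neck) and 3.86% and 4.90% between cell types (MIST1-null, wild-type). Values near the detection level, such as those of Muc5ac, are compressed or noisy to an unknown degree. No paired analysis was possible because each group holds 1 array, and for the same reason no array could be left out.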
